A study of Mus musculus with 2 samples.

Results

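The genes described here are the cyclins, cyclin-dependent kinases (CDKs), Cdc and Cdca proteins, replication factors and mitotic kinases of mouse flexor tendon cells exposed to mechanical shear. They were chosen by gene symbol alone, from the naming patterns of these families in the platform annotation. No measured value entered the rule, but earlier results of these data were known when the members were chosen. The rule found 84 genes of the 10791 that carried a value on either array, on 210 probes, and 83 of them were measured on both arrays. Of the 84 genes, 25 were represented by 1 probe, 31 by 2 probes and 28 by 3 or more.

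The study measured tenocytes, the fibroblast-like cells of tendon, on 2 spotted two-colour arrays. On the 12 h array, channel 1 (Cy3) held RNA of control tenocytes at 12 h and channel 2 (Cy5) RNA of cells sheared at 50 rpm for 12 h. On the 6 h array, channel 1 held RNA of pooled control cells at 6 h and channel 2 RNA of pooled sheared cells at 6 h, and the labels give no rotation speed for it. The labels record no treatment of the control cells, no strain and no age, and there was 1 array per time point without a dye swap, so no difference could be tested and "higher" and "lower" describe these arrays only.

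Each value is a log2 ratio, likely of sheared over control, after subtraction of the median of all spots of its array. Which way the ratio runs is inferred: the labels put sheared RNA in Cy5, and the image database they name reports red divided by green. Were it the other way round, every sign would turn. That the logarithm has base 2 is assumed from the range of the values. The deposited medians that were subtracted were -0.323 at 6 h, over 39776 measured spots, and -0.479 at 12 h, over 41717, and uncentred values are lower by these amounts. A gene's value is the median of its probes, and the only error at hand is the SD between different probes of 1 gene. Pooled over all genes with several probes, that SD was 0.738 log2 at 6 h and 0.855 at 12 h; among the members it was 0.648 and 0.989. It covers clones and spots, not cultures, and spot brightness is unknown, as the table holds ratios only. For the same reason the markers of tendon cells cannot show here whether the cells are tenocytes. In bulk RNA, fewer cycling cells and less RNA per cell cannot be told apart.

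Cells pass from growth to DNA synthesis and division under the control of CDKs, which are active only when bound to a cyclin. Cyclin D with Cdk4 or Cdk6 releases the E2F transcription factors from the retinoblastoma protein, and E2F then drives genes for cyclin E, the MCM helicase, the clamp PCNA and other parts of the replication machinery. Later, cyclins A and B with Cdk1, the Polo and Aurora kinases and the Bub checkpoint proteins carry the cell through mitosis, and the anaphase-promoting complex ends it by marking cyclins for destruction. Tendon fibroblasts in the adult animal divide rarely, whereas in culture they proliferate.

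The family as a whole lay close to the other genes of each array, and members stood far from 0 in either direction, as other genes did. The SD across members was 1.010 log2 at 6 h and 1.117 at 12 h, against 1.003 and 1.146 across all genes. The median of the members was -0.33 at 6 h (83 genes, quartiles -0.71 and 0.35) against -0.11 for all 10346 genes. At 12 h it was -0.17 (84 genes, quartiles -0.94 and 0.41) against -0.14 for all 10731 genes. At 6 h, 5 members were at least 2-fold higher, or 6.02%, where 6.20% of all genes were, and 15 were at least 2-fold lower, or 18.1%, where 18.8% of all genes were. At 12 h, 7 members were at least 2-fold higher, or 8.33% against 14.5% of all genes, and 20 were at least 2-fold lower, or 23.8% against 20.5%. The shares at 6 h were near the background of the array in both directions. At 12 h the share of members on the higher side was below that of all genes and the share on the lower side slightly above it, and neither gap could be tested. Without centring, 3 members were higher and 22 lower at 6 h, with backgrounds of 2.38% and 28.0%, and 3 were higher and 29 lower at 12 h, with backgrounds of 6.91% and 35.0%. From 1.5-fold, 11 members were higher and 26 lower at 6 h, against 18.2% and 31.3% of all genes, and 17 were higher and 27 lower at 12 h, against 24.4% and 33.1%. From 3-fold, 1 was higher and 6 lower at 6 h, against 1.30% and 8.65%, and 3 were higher and 10 lower at 12 h, against 5.74% and 9.74%.

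The number of probes behind a gene moved with its value, and its part in the result was not tested. Members measured by 1 probe at 6 h had a median of -0.58 (25 genes), and 10 of the 15 members at least 2-fold lower were among them, or 40.0% of such members against 25.8% of all genes with 1 probe. Members with 2 or more probes had a median of -0.03 (58 genes), and 5 were lower, or 8.62% against 12.5%. Over all genes of the array, the median was -0.32 for 4950 genes with 1 probe and 0.05 for 5396 genes with more. At 12 h the members showed the same order, at -0.47 for 27 genes with 1 probe and -0.07 for 57 genes with more, and 9 of the 20 lower members rested on 1 probe. These were 33.3% of the members with 1 probe, against 24.8% of all such genes, and the other 11 were 19.3% of those with more, against 16.6%. Values on 1 probe are named as such below and have no check of their own.

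**Figure D1:**
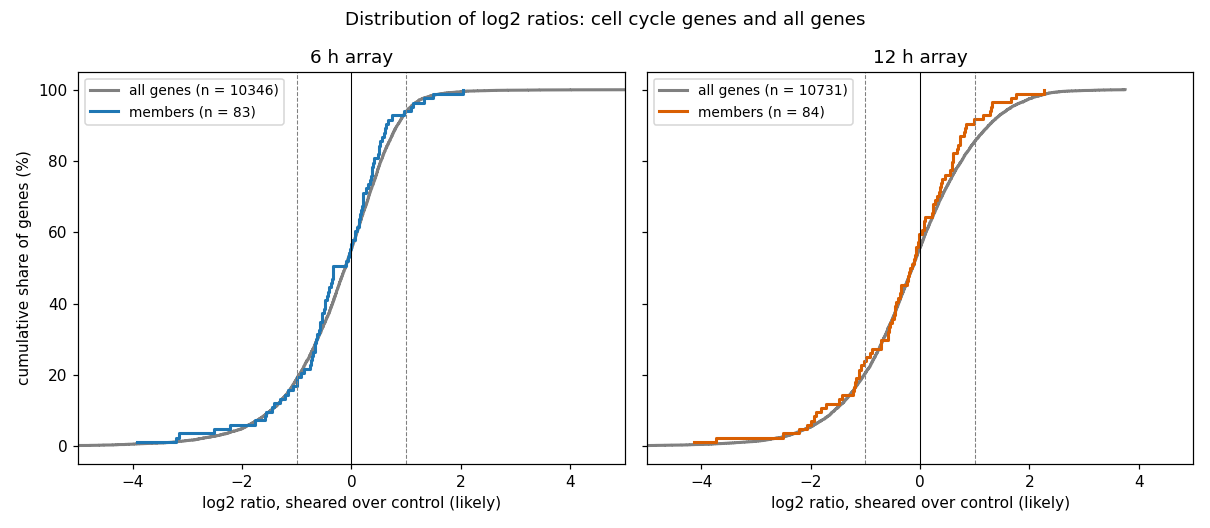
Cumulative share of genes (percent) against the log2 ratio on the 6 h array (left) and the 12 h array (right), for the members (coloured) and all genes (grey), with dashed lines at 2-fold; genes beyond 5 log2 on either side are not shown. At 6 h the curves part in the middle, with medians of -0.33 for the members and -0.11 for all genes. Their shares past 2-fold are close there. At 12 h the member curve lies above the grey one on the right, where 8.33% of the members and 14.5% of all genes are at least 2-fold higher.

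Pcna, the sliding clamp that holds DNA polymerases on their template, was the highest member on both arrays. Its 6 probes (gene ID 18538) read 2.27, 1.85, 1.79, 1.64, 2.22 and 2.42 at 6 h. The same probes in the same order read 2.34, 2.27, 2.19, 1.75, 2.27 and 2.30 at 12 h. All 12 values lay above 1.6, and no other member with 3 or more probes came as high with every probe. The median was 2.03 at 6 h (probe SD 0.31, n = 6 probes), or 4.10-fold, and 2.27 at 12 h (probe SD 0.22), or 4.82-fold. Per probe, the 12 h value exceeded the 6 h value by a median of 0.09 (SD 0.22), higher in 5 of 6 probes, which is within the spread between probes.

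The clamp loader, the Rfc complex that opens the Pcna ring and closes it around DNA, did not read like the clamp. Its large subunit Rfc1 stood at -0.63 at 6 h (probe SD 0.72, 4 probes) and -0.71 at 12 h (probe SD 0.95), and its probes lay on either side of 0. Rfc5, a small subunit, was at least 2-fold lower on both arrays. The 3 probes of Rfc5 read -1.80, -1.42 and 0.03 at 6 h and -1.70, -1.18 and -0.13 at 12 h, so that a single probe near 0 parted from the others at both times. The small subunits Rfc2, Rfc3 and Rfc4 stood at -0.44, -0.49 and 0.14 at 6 h and at 0.60, -0.03 and 0.82 at 12 h. The probes of Rfc2 read -0.01 and -0.87 at 6 h against 0.72 and 0.48 at 12 h, and each was higher at 12 h, by a median of 1.04 (SD 0.43, 2 probes).

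Origin licensing and the replicative helicase spread to both sides of 0. Cdc6, which loads the MCM ring on origins of replication, was the highest member of the group at 6 h and stood below Cdc45 at 12 h. Its 2 probes (gene ID 23834) read 1.23 and 1.44 at 6 h and 1.99 and 0.64 at 12 h. That gave medians of 1.33 (probe SD 0.15, 2.52-fold) and 1.32 (probe SD 0.96, 2.49-fold), close at 6 h and far apart at 12 h. Without centring the 12 h value of Cdc6 was 0.84, short of 2-fold. The subunits Mcm2 to Mcm7, which form the hexameric helicase, ranged from -1.56 (Mcm3) to 0.21 (Mcm2) at 6 h and from -0.47 (Mcm3) to 0.67 (Mcm2) at 12 h. Of these 6 genes only Mcm3 passed 2-fold, at 6 h and on 1 probe. Mcm6 was the best covered, with probes at -0.23, -0.25, -0.77 and -0.45 at 6 h and at -0.06, -0.05, 0.50 and 0.74 at 12 h, each higher at 12 h, by a median of 0.69 (SD 0.60, 4 probes). Mcm4, Mcm5 and Mcm7 stood at -0.57, 0.07 and 0.01 at 6 h and at 0.36, -0.35 and -0.47 at 12 h.

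The MCM relatives outside the hexamer had medians below 0 on both arrays. Mcm8 and Mcm9, which pair with each other in recombination repair, stood at -2.23 on 1 probe and -0.76 (probe SD 0.06) at 6 h and at -2.21 and -1.11 (probe SD 0.42) at 12 h. Mcm8 was thus at least 4-fold lower on both arrays, 4.68-fold and 4.63-fold, and Mcm9 passed 2-fold at 12 h only. A further probe of Mcm9, shared with Asf1a in the annotation, read 0.37 and -0.10. With that probe counted, Mcm9 stood at -0.82 at 12 h, short of 2-fold, and with both arrays brought to 1 scale at -0.999. Mcm10, a replisome scaffold, stood at -0.33 and -0.92, and Cdc7, the kinase that fires origins, at -0.48 and -0.43. Cdc45, which joins the helicase when an origin fires, stood at -0.65 at 6 h and 1.66 at 12 h on 1 probe.

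**Figure D2:**
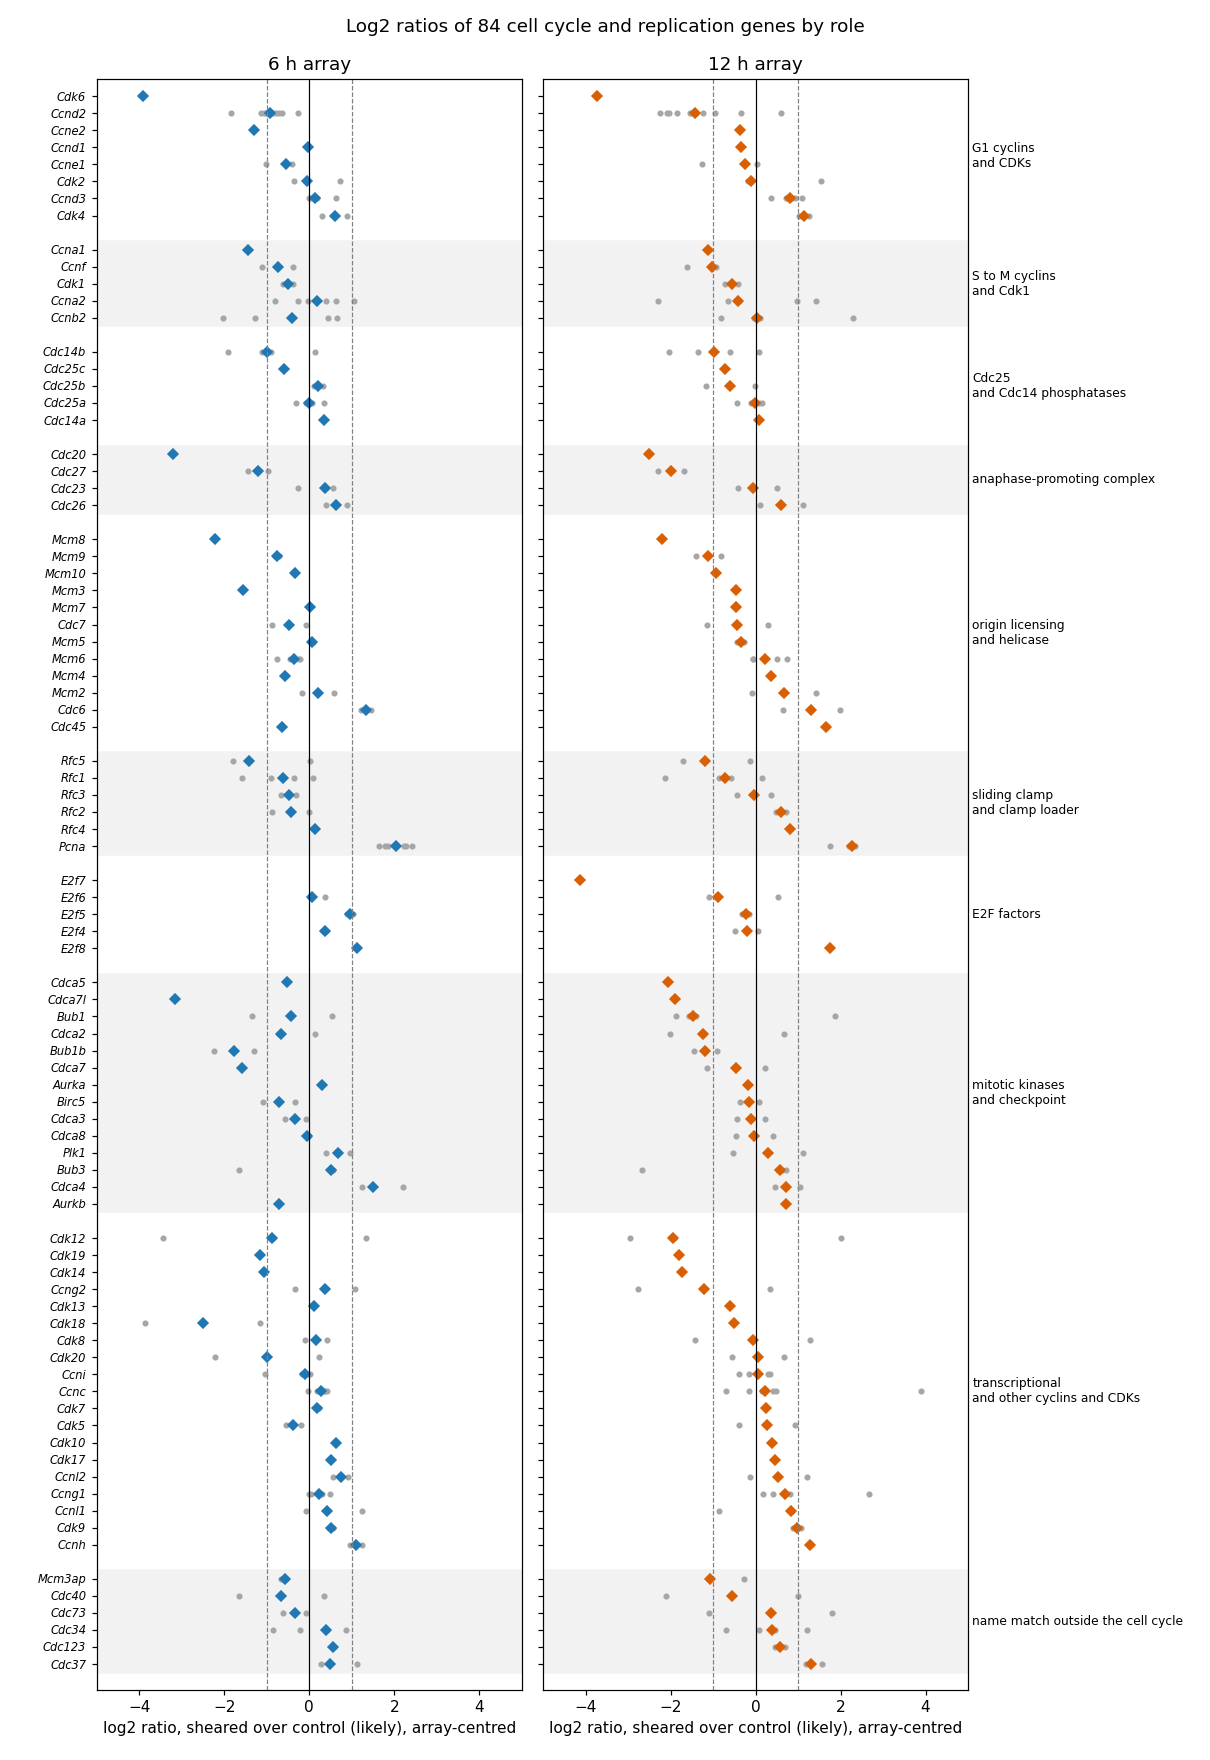
Log2 ratio, likely sheared over control, of every member on the 6 h array (left) and the 12 h array (right); grey points are single probes, diamonds are the medians per gene, dashed lines mark 2-fold, and rows are grouped by role and ordered by the 12 h value. Pcna stands at 2.03 and 2.27 with all probes together, Cdk6 at -3.92 and -3.74 on 1 probe, and most role groups hold values on either side of 0.

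Among the G1 genes, the cyclin D2 gene Ccnd2 read low and the kinase gene Cdk4 read high. Ccnd2, a partner of Cdk4 and Cdk6 that responds to growth factors, was the best covered member, with 13 probes (gene ID 12444) on 12 distinct clones. At 6 h its probes ran from -1.85 to -0.25 with a median of -0.93 (probe SD 0.36), and all 13 lay below 0. At 12 h they ran from -2.25 to 0.61 with a median of -1.43 (probe SD 0.77), or 2.70-fold lower, and 12 of 13 lay below 0. The probe at 0.61 was the exception, and it read -0.79 at 6 h. Per probe, the 12 h value was lower than the 6 h value in 12 of 13 probes, by a median of -0.44 (SD 0.62).

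The other D cyclins differed from Ccnd2. The 6 probes of Ccnd3 read 0.64, 0.18, -0.01, 0.17, 0.01 and 0.10 at 6 h and 1.08, 0.72, 0.38, 0.94, 0.75 and 0.85 at 12 h. Its medians were 0.13 (probe SD 0.24) and 0.80 (probe SD 0.24), and each probe was higher at 12 h, by a median of 0.64 (SD 0.17). The median rested near 0 at 6 h and short of 2-fold at 12 h. Ccnd1 stood at -0.03 and -0.34 on 1 probe of its own. A further 6 probes, shared with the neighbouring gene LTO1 in the annotation, ran from -0.46 to -0.03 at 6 h and from -0.81 to -0.02 at 12 h, so that Ccnd1 stayed within 2-fold on every probe at hand.

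Cdk4, the kinase of the D cyclins, read above 0 on all 4 probes (gene ID 12567) of both arrays. The probes read 0.59, 0.29, 0.89 and 0.61 at 6 h and 1.01, 1.15, 1.25 and 1.15 at 12 h. The medians were 0.60 (probe SD 0.24, 1.51-fold) and 1.15 (probe SD 0.10, 2.22-fold), and all 4 probes were higher at 12 h, by a median of 0.48 (SD 0.22). Without centring the 12 h value of Cdk4 was 0.67, short of 2-fold. Its close relative Cdk6 was the lowest member at 6 h, at -3.92 (15.1-fold lower), and stood at -3.74 (13.4-fold lower) at 12 h, each on 1 probe. Cdk2, the partner of cyclins E and A, stood at -0.06 and -0.10 (3 probes, probe SD 0.57 and 0.97). The cyclin E genes Ccne1 and Ccne2 stood at -0.54 and -1.30 at 6 h and at -0.24 and -0.38 at 12 h, and Ccne2 was on 1 probe.

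The cyclins of S phase and mitosis and their kinase Cdk1 read near or below 0. Cdk1, the mitotic kinase, read -0.38 and -0.61 at 6 h and -0.41 and -0.71 at 12 h on its 2 probes, so both probes lay below 0 and within 2-fold at both times. Ccnf, an F-box protein that limits centrosome duplication, read -0.39, -1.11 and -0.74 at 6 h and -1.61, -1.02 and -0.94 at 12 h. It passed 2-fold at 12 h at a median of -1.02 (probe SD 0.37), or -0.91 with both arrays brought to 1 scale. Ccna1, the germ-line form of cyclin A, stood at -1.44 and -1.12 on 1 probe, the latter -0.94 with print blocks centred and so short of 2-fold. For the somatic form Ccna2 the 6 probes disagreed, running from -0.81 to 1.05 at 6 h and from -2.31 to 1.42 at 12 h. For cyclin B2 (Ccnb2) the 4 probes ran from -2.03 to 0.65 and from -0.81 to 2.30. No level can be given for these cyclins beyond that spread.

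The phosphatases that switch CDKs on or reverse their action lay within 2-fold, except for Cdc14b at 6 h. Cdc25a, which activates Cdk2, stood at -0.01 on both arrays (4 probes, probe SD 0.28 and 0.27). Cdc25b and Cdc25c, which act before mitosis, stood at 0.22 and -0.58 at 6 h and at -0.59 and -0.71 at 12 h. Cdc14b read -0.89, 0.14, -1.11 and -1.90 at 6 h and -0.61, 0.09, -1.36 and -2.04 at 12 h, a median at the 2-fold line with probes on either side of it. The 6 h value of Cdc14b was -0.94 both as the mean of probes and with print blocks centred, short of 2-fold. Cdc14a stood at 0.35 and 0.09 on 1 probe.

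Of the anaphase-promoting complex, the ubiquitin ligase that ends mitosis, the core subunit Cdc27 and the activator Cdc20 read low and the other 2 members stayed within 2-fold. The 2 probes of Cdc27 read -0.96 and -1.45 at 6 h and -1.69 and -2.29 at 12 h. The medians were -1.21 (probe SD 0.35, 2.31-fold lower) and -1.99 (probe SD 0.43, 3.97-fold lower), and both probes were lower at 12 h, by a median of -0.78 (SD 0.08). Cdc23, another core subunit, stood at 0.37 and -0.07 (4 probes, probe SD 0.37 at both times), and the small subunit Cdc26 at 0.63 and 0.60. The activator Cdc20 stood at -3.20 at 6 h and -2.51 at 12 h on 1 probe, while a probe shared with Elovl1 in the annotation read -0.45 and -0.30. With that probe counted, Cdc20 stood at -1.83 and -1.40.

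The E2F factors that could be measured were E2f4 to E2f8, and the activators E2f1, E2f2 and E2f3 were not analysed here. E2f8, an atypical repressor, stood at 1.13 and 1.76 on 1 probe. Its 6 h value was 0.81 without centring and 0.87 with print blocks centred, short of 2-fold. Its close relative E2f7 was measured at 12 h only, at -4.13 on 1 probe, the lowest value of the family. E2f5, a repressor that works with the pocket proteins, read 1.04 and 0.89 at 6 h and -0.14 and -0.31 at 12 h. It was thus 1.95-fold higher at 6 h and near 0 at 12 h, a difference of -1.19 (SD 0.02, 2 probes). E2f4, of the same class, read 0.32 and 0.40 at 6 h and -0.48 and 0.07 at 12 h. E2f6, which acts with Polycomb proteins, read 0.36, 0.03 and 0.06 at 6 h and -1.10, 0.54 and -0.88 at 12 h. All 4 E2F genes measured at 6 h lay above 0 there, and 3 of them lay below 0 at 12 h. Of all genes, 55.3% lay below 0 at 6 h and 55.6% at 12 h. The probes of E2f4 and E2f6 lay on either side of 0 at 12 h.

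The group of mitotic kinases and checkpoint genes, in which the Cdca genes were counted, held some of the lowest and some of the higher values. Its only member at least 2-fold higher on either array was Cdca4, at 6 h. Bub1b, a kinase-like protein of the spindle checkpoint, read -2.24 and -1.29 at 6 h and -1.45 and -0.91 at 12 h, at least 2-fold lower on both arrays by its median (-1.77, probe SD 0.67, and -1.18, probe SD 0.39). Bub1, its partner at kinetochores, read 0.55, -0.43 and -1.35 at 6 h and 1.87, -1.88, -1.57 and -1.39 at 12 h. The probe of Bub1 that read high did so on both arrays, and the mean of the probes at 12 h was -0.74, short of 2-fold. Bub3, which brings both to kinetochores, stood at 0.51 and 0.57, with 3 probes near those values and another at -1.66 and -2.67.

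Cdca4, a regulator of transcription, was the second highest member at 6 h. Its 3 probes read 2.19, 1.24 and 1.496 at 6 h and 0.45, 1.05 and 0.72 at 12 h, and every probe was above 0. The median was 1.496 (probe SD 0.50, 2.82-fold) at 6 h and 0.72 (probe SD 0.30, 1.65-fold) at 12 h, and all 3 probes were lower at 12 h, by a median of -0.77 (SD 0.79). The Myc-linked genes Cdca7 and Cdca7l stood at -1.58 and -3.16 at 6 h, each on 1 probe. At 12 h Cdca7l stood at -1.90 and the 2 probes of Cdca7 read -1.14 and 0.23. Cdca5, which protects sister chromatid cohesion, stood at -0.53 and -2.07 on 1 probe. Cdca2, which brings a phosphatase to chromosomes, read 0.14, -0.71 and -0.66 at 6 h and 0.68, -2.01 and -1.23 at 12 h, and its median passed 2-fold at 12 h, at -1.23, but the mean of its probes, -0.85, did not.

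The Aurora and Polo kinases and the chromosomal passenger proteins stayed within 2-fold. Plk1 stood at 0.68 (probe SD 0.41) and 0.30 (probe SD 1.16), and Aurka at 0.30 and -0.19 on 1 probe. Aurkb, the kinase of the passenger complex, stood at -0.72 at 6 h and 0.73 at 12 h on 1 probe. Its partners Birc5 and Cdca8 stood at -0.70 and -0.05 at 6 h and at -0.15 and -0.03 at 12 h, and Cdca3, a factor of mitotic entry, at -0.33 and -0.11. Of these genes, only Aurkb lay at least 1.5-fold from 0 on opposite sides at the 2 times.

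Cyclins and CDKs that act mainly in transcription or elsewhere made up the largest group, with 19 members. Ccnh, the cyclin of the CDK-activating kinase, was at least 2-fold higher on both arrays: its 2 probes (gene ID 66671) read 0.95 and 1.23 at 6 h and 1.27 and 1.28 at 12 h. The medians were 1.09 (2.13-fold) and 1.27 (2.42-fold), or 0.77 and 0.80 without centring. Its kinase partner Cdk7 stood at 0.19 and 0.24. Cdk9, the kinase of transcription elongation, stood at 0.51 (probe SD 0.08) and 0.98 (probe SD 0.13).

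The kinases Cdk14 and Cdk19 read low on both arrays in the same group, and the probes of Cdk12 disagreed. Cdk19, a Mediator kinase, stood at -1.17 and -1.80 and Cdk14, which pairs with cyclin Y, at -1.07 and -1.73, each on 1 probe. Cdk12, which phosphorylates RNA polymerase II, read 1.33, -0.89, -3.44 and -0.85 at 6 h and 2.0, -1.97, -2.96 and -1.92 at 12 h. The probes of Cdk12 spanned 4.77 log2 at 6 h and 4.96 at 12 h, each keeping its side on both arrays. Cdk18 stood at -2.51 at 6 h on 2 probes that read -1.16 and -3.86, and at -0.51 at 12 h on 1 probe. Ccng2, a cyclin linked to growth arrest, read 1.08 and -0.34 at 6 h and 0.35 and -2.76 at 12 h, each probe lower at 12 h, by a median of -1.57 (SD 1.19).

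The remaining members of the group stayed within 2-fold on both arrays. Ccnc, the Mediator cyclin, had 7 measured probes with a median of 0.27 at 6 h (probe SD 0.15) and 0.23 at 12 h (probe SD 1.497), where 1 probe read 3.89. Ccng1, a p53 target, stood at 0.22 (probe SD 0.19, 5 probes) and 0.69 (probe SD 0.99), higher at 12 h on all 5 probes. Ccni, Ccnl1 and Ccnl2 stood at -0.10, 0.41 and 0.74 at 6 h and at 0.07, 0.84 and 0.54 at 12 h. The kinases Cdk5, Cdk8, Cdk10, Cdk13, Cdk17 and Cdk20 ranged from -0.99 (Cdk20) to 0.62 (Cdk10) at 6 h and from -0.59 (Cdk13) to 0.46 (Cdk17) at 12 h.

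A further 6 genes carried matching names and were set apart as a group, most of which act mainly outside the cell cycle. Cdc37, which brings kinases to the chaperone Hsp90, read 1.12, 0.48 and 0.28 at 6 h and 1.30, 1.19 and 1.57 at 12 h. Its median was 1.30 at 12 h (probe SD 0.20, 2.46-fold), or 0.82 without centring, and all 3 probes were higher at 12 h. Mcm3ap, an mRNA export protein whose gene was named for binding Mcm3, read -0.58, -0.55 and -0.67 at 6 h and -0.28, -1.08 and -1.09 at 12 h. The 12 h median of Mcm3ap, -1.08, fell short of 2-fold as the mean of probes, at -0.82, and with both arrays brought to 1 scale, at -0.97. Cdc34, Cdc40, Cdc73 and Cdc123 stayed within 2-fold, from -0.66 (Cdc40) to 0.56 (Cdc123) at 6 h and from -0.56 (Cdc40) to 0.58 (Cdc123) at 12 h. With these 6 genes left out, the median of the members was -0.33 at 6 h and -0.20 at 12 h.

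Promoter sequences are shown for 4 members that sit at different places in this range, since E2F sites are a known shared feature of replication genes. The windows are the 250 bases before the transcription start in the RefSeq table of GRCm38.p6, printed 5′ to 3′ on the strand of the gene. Capitals mark matches to the E2F sites TTTCCCGC and TTTGGCGC on either strand. They were taken at chr2:132253181-132253430 (minus strand) for Pcna, chr11:98907901-98908150 (plus) for Cdc6, chr1:128359706-128359955 (minus) for Mcm6 and chr2:72475969-72476218 (plus) for Cdca7.
Pcna: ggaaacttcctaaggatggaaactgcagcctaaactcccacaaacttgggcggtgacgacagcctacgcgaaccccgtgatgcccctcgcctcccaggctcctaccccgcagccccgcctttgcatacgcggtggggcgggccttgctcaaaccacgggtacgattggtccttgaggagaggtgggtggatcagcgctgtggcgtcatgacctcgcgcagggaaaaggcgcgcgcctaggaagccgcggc
Cdc6: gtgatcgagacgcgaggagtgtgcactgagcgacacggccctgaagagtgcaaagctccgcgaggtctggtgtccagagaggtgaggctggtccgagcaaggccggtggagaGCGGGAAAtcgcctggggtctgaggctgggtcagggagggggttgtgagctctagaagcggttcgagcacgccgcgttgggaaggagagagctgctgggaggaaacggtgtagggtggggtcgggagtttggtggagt
Mcm6: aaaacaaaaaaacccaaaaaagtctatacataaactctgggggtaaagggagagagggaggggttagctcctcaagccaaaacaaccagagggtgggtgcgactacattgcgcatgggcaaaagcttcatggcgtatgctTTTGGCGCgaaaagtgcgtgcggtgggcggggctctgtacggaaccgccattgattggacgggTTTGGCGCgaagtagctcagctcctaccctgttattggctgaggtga
Cdca7: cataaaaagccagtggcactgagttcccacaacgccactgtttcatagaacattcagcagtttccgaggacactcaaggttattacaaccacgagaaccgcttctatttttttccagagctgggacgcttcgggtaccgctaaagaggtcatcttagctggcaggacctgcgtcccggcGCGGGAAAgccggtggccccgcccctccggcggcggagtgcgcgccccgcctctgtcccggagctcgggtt
The Mcm6 window holds 2 sites, starting at -110 and -47 from the transcription start, and those of Cdc6 and Cdca7 hold 1 each, at -138 and -71. No exact match to these letters lies in the Pcna window.

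Members with and without such a site both lay on either side of 0. RefSeq windows of 300 bases, which add the first 50 transcribed bases, were matched by gene ID for 68 of the 84 members, in 76 windows. An E2F match was found in 11 of the 76 windows (14.5%), against 1.56% of all 32851 windows of the table. The 11 members that carry one are Cdc6, Mcm3, Mcm5, Mcm6, Mcm7, Mcm8, Rfc3, Cdk2, Cdc25a, Cdca7 and E2f7. Their median was -0.21 at 6 h (10 measured) and -0.35 at 12 h, against -0.10 and -0.11 for the 57 members without a match. They held the high value of Cdc6 (1.33 and 1.32), the near-zero values of Cdk2 and Cdc25a, the low value of Mcm8 (-2.23 and -2.21) and, at 12 h only, that of E2f7 (-4.13). The element TTTGAA, called CHR in genes of mitosis, was found in 28.9% of the member windows against 17.9% of all, and the box CCAAT in 57.9% against 37.4%, both strands searched. Members with the CHR letters had medians of -0.33 at 6 h and -0.03 at 12 h (19 genes), against -0.04 and -0.24 for those without, so the order turned between the times. Members with the CCAAT letters had medians of -0.06 and -0.11 (41 and 42 genes), against -0.22 and -0.20 for those without. These are matches of letters in a window and no measure of binding.

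Full agreement of probes on a side of 0 was less frequent among the members than among all genes, a gap that was not tested. Of the 28 members with 3 or more probes on both arrays, 4 had every probe above 0 on both arrays, or 14.3% against 25.1% of the 2509 such genes of the array: Pcna, Cdk4, Cdca4 and Cdc37. Only 2, Ccnf and Mcm3ap, had every probe below 0 on both, or 7.14% against 12.5%. Probes of 1 gene stood at least 4-fold apart in 7 of 58 members with several probes at 6 h (12.1%, against 12.0% of all such genes) and in 15 of 57 at 12 h (26.3% against 18.5%). At 12 h these were Ccnd2, Ccna2, Ccnb2, Bub1, Bub3, Cdca2, Cdc14b, Cdc40, Cdc73, Rfc1, Ccnc, Ccng1, Ccng2, Cdk8 and Cdk12. The probe SD exceeded the distance of the median from 0 in all but Ccnd2 and Cdc14b. By that measure the side of those medians has little support. Of the Ccnd2 probes 12 of 13 lay below 0, while all 5 of Ccng1 and 3 of 4 of Bub3 lay above it.

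**Figure D3:**
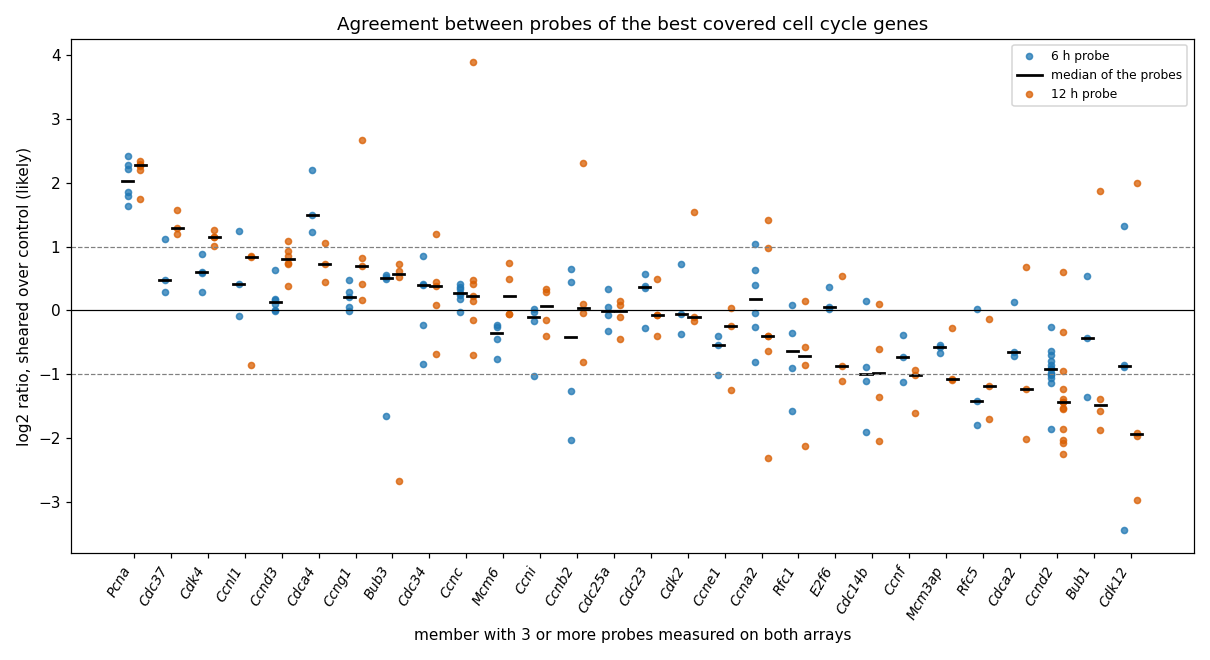
Log2 ratio, likely sheared over control, of each probe (points, blue for 6 h and orange for 12 h) of the 28 members with 3 or more probes measured on both arrays, ordered by their 12 h median; black bars are medians and dashed lines mark 2-fold. The 6 probes of Pcna lie between 1.64 and 2.42 on both arrays, the 4 probes of Cdk4 all lie above 0, 12 of 13 Ccnd2 probes lie below 0 at 12 h, and those of Cdk12 span 4.96 log2 at 12 h.

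The arrays of 6 h and 12 h gave a similar order of the members. Over the 83 members on both, Pearson's r across genes was 0.76 and Spearman's rho 0.72, and over all 10286 genes they were 0.66 and 0.74. The points share probes, platform and dye orientation, and genes are not independent replicates. The sign was the same on both arrays for 61 of 83 members (73.5%), against 80.5% of all genes. At least 2-fold higher on both arrays were 4 members, Pcna, Cdc6, Ccnh and E2f8, or 4.82% against 4.34% of all genes, and without centring Pcna alone of the 4 stayed past 2-fold on both. At least 2-fold lower on both were 10 members, or 12.0% against 9.80%: Cdk6, Cdc20, Cdca7l, Mcm8, Cdk14, Cdk19 and Ccna1 on 1 probe, and Cdc27, Bub1b and Rfc5 on more. Of the 83 members on both arrays, 51 were within 2-fold on both, a count that was not made over all genes.

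Between the times the members differed little as a group. The median difference per probe, 12 h minus 6 h, was 0.02 over 83 members (quartiles -0.34 and 0.48), against 0.13 over 10278 genes (quartiles -0.34 and 0.59). Of the members, 44 read higher and 39 lower at 12 h, a count that was not made over all genes. A difference of at least 2-fold towards a higher value at 12 h was found for 7 members (8.43%, against 11.2% of all genes) and towards a lower value for 3 (3.61%, against 6.94%). The 7 were Cdc45, Aurkb, Cdca7l and Mcm3 on 1 probe and Ccnb2, Rfc2 and Cdk20 on more, and the 3 were Cdca5 on 1 probe and Ccng2 and E2f5 on 2. The pooled SD of such differences between probes of 1 gene was 0.740 over all genes. Cdc45 and Aurkb were the 2 members at least 1.5-fold from 0 on opposite sides, or 2.41%, against 1.32% of all genes.

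**Figure D4:**
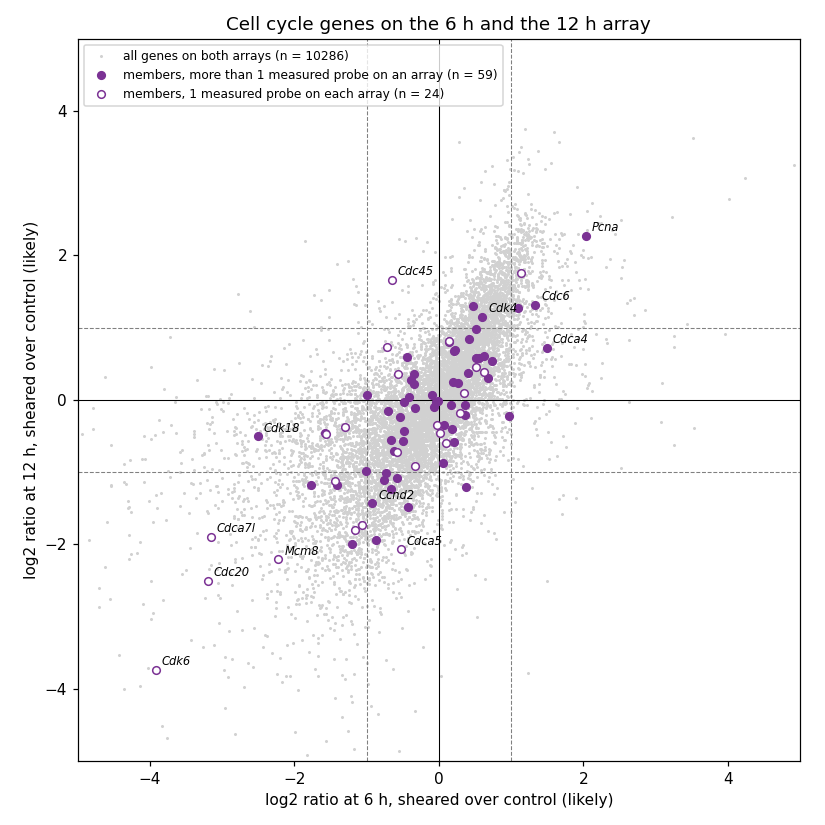
Log2 ratio at 12 h against that at 6 h for the 83 members on both arrays (purple; open circles are the 24 with 1 measured probe on each array) and for all 10286 genes (grey), with dashed lines at 2-fold; genes beyond 5 log2 are not drawn. Pcna lies at the upper right, Cdk6, Cdc20, Mcm8 and Cdca7l at the lower left, all 4 as open circles, and Cdc45 at the upper left with -0.65 at 6 h and 1.66 at 12 h.

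Genes of the same pathway outside the family were read from lists, to be set against the 18.8% of all genes at least 2-fold lower at 6 h and 20.5% at 12 h, and the 6.20% and 14.5% higher. Of 12 measured CDK inhibitors, pocket proteins and E2F partners, none was at least 2-fold higher at either time, 2 were lower at 6 h and 1 at 12 h, and their medians were 0.04 and 0.01. The inhibitors Cdkn1a, a p53 target, and Cdkn2a stood at 0.47 and 0.76 at 6 h and at 0.49 and 0.43 at 12 h, each on 1 probe, and Cdkn1c at -0.27 and 0.89 (3 probes, probe SD 0.91 and 0.92). Cdkn3 stood at 0.57 and -0.44, Cdkn2d at -1.14 and -0.91 and the pocket protein Rbl1 at -1.34 and -2.08, each on 1 probe. Low values were thus found for Rbl1 on both arrays and high ones for no inhibitor.

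The 5 checkpoint kinases measured all read below 0, where 55.3% of all genes did at 6 h and 55.6% at 12 h. They had medians of -0.58 and -1.20, with 1 and 3 at least 2-fold lower. Chek2, a DNA damage kinase, stood at -2.38 and -2.74 on 1 probe, and Atm, which acts above it, at -0.99 (probe SD 0.39) and -1.25 (probe SD 1.79). Wee1, which holds Cdk1 inactive, stood at -0.29 and -1.20, Chek1 at -0.58 and -0.20 and Atr at -0.45 and -0.55, the last on 1 probe.

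Other replication factors had medians near those of the members, which were -0.33 at 6 h and -0.17 at 12 h. The median of this list was -0.32 at 6 h, when none of 27 passed 2-fold on the higher side and 4 did on the lower. It was -0.26 at 12 h, when 2 of 28 were higher and 4 lower. The origin recognition subunits Orc5 and Orc6 stood at 0.96 and 0.62 at 6 h and at 2.10 and 0.01 at 12 h, each on 1 probe. The DNA ligase Lig1 stood at -0.81 and 1.23, with probe SDs of 1.60 and 1.95. The nucleotide enzyme Tyms stood at -2.15 and -1.41 and the polymerase subunit Pold1 at -1.36 and -0.64, each on 1 probe. Pole stood at -2.41 on 1 probe, at 12 h only. Tk1, another nucleotide enzyme, stood at -0.81 (2 probes, probe SD 0.62) and -1.60 (probe SD 2.65). No replication factor of the list came near the 2 values of Pcna except Orc5 at 12 h.

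Other mitosis genes were spread widely. Their median was -0.27 at 6 h, when 2 of 36 passed 2-fold on the higher side and 5 on the lower. It was -0.33 at 12 h, when 3 of 37 were higher and 10 lower. Cks1b and Cks2, small proteins that bind CDKs, stood at 1.09 (probe SD 0.02) and 2.57 (1 probe) at 6 h and at 0.99 and 1.94 at 12 h. Anapc11, a subunit of the anaphase-promoting complex, stood at 0.97 (probe SD 0.18) and 2.07 (probe SD 0.03). The checkpoint kinase Ttk stood at -4.71 and -2.87 on 1 probe, Nek2 at -1.61 (probe SD 3.11) and 0.12, and the condensin subunit Ncapd2 at -0.71 and -2.54 (probe SD 1.73). The proliferation marker Mki67, named after its value was seen, stood at -0.37 and -0.16 on 1 probe.

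Markers of tendon and of other cell types were read as ratios beside these values. Of 5 measured tendon markers none was at least 2-fold from 0 at 6 h, and 1 was lower at 12 h, with medians of 0.43 and -0.05. The medians were 0.39 and 0.46 for 3 leukocyte markers, -0.25 and -0.57 for 3 endothelial, -0.27 and 0.02 for 2 skeletal muscle and -0.69 and -0.36 for 6 epithelial markers. The ranges were -1.05 to 1.70 for the leukocyte, -2.03 to 1.76 for the endothelial and -2.26 to 0.67 for the epithelial genes over both arrays. Their part in the values of the cell cycle genes was not tested.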

How the data were processed

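The deposited table holds 1 value per spot and array, a log2 ratio taken as Cy5 over Cy3, for 42624 spots, of which 2848 were missing at 6 h and 907 at 12 h. How the authors normalized and filtered these deposited log2 values, and with which scanner and background correction, was not given in the sources used here. Intensities of the spots were not used. The median of all spots was subtracted from each array. Gene names came from the platform annotation held by GEO, which gave 1 symbol for 21701 spots, several for 1124 and none for 19799. All 84 member gene IDs were found in RefSeq GRCm38.p6 with the same symbol. Probes with 1 symbol were summarised per gene by their median. Members and lists were chosen with earlier results of these data known. A gene was counted from 2-fold; with 1 array per time no test was run, and depth is unknown. Probe values were to be given for members past 2-fold on both arrays, for those with 3 or more probes past it on either, for the 6 highest and lowest of each array and for members 1.5-fold from 0 on opposite sides; each other list was represented by its 2 highest and 2 lowest genes per array. Alternatives were no centring, print blocks of 900 consecutive spot numbers (48 blocks) centred, a common scale, the mean of probes, 2 or more probes, members on both arrays, shared probes kept, name matches left out, and counts at 1.5-fold and 3-fold; 1 value per clone was added after the data were seen. Protein lengths were not used here. The pooled probe SD and the counts were tested on simulated data. Python 3.11.15, pandas 2.3.3 and numpy 2.4.6 were used.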

Additional observations from a re-analysis of the deposited data

Results flagged for a closer look

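Cdc45 and Aurkb stood at least 1.5-fold from 0 on opposite sides at the 2 times. Cdc45 stood at -0.651 at 6 h and 1.661 at 12 h, and Aurkb at -0.721 and 0.728. Each value rests on 1 probe and 1 array, and the difference between the times was not tested.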

How the results depend on the processing

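No paired analysis was possible because each time point has 1 array. Without centring, the median of the members was -0.656 at 6 h and -0.647 at 12 h (all genes: -0.437 and -0.619). In that setting 3 members were at least 2-fold higher at each time, and the median difference between the times changed sign to -0.139 (all genes: -0.025). With print blocks centred, the 6 h median was -0.221 (all genes: -0.121). Over members with 2 or more probes the medians were -0.027 and -0.070 (all such genes: 0.054 and 0.025). Of these members, 5 (8.62%, all such genes 12.5%) were lower at 6 h and 11 (19.3%, all 16.6%) at 12 h. From 1.5-fold, 11 members were higher and 26 lower at 6 h, and 17 higher at 12 h. From 3-fold, 1 was higher and 6 lower at 6 h, and 3 higher and 10 lower at 12 h. The other settings left these medians and counts within the bounds used. All 20 members past 2-fold at 6 h and all 27 at 12 h kept their direction in every setting run. In all of these settings 17 of each stayed past 2-fold. Much of this was fixed in advance. The medians subtracted were smaller than the 2-fold threshold, and a common scale cannot turn a sign. For a member on 1 probe, the mean of probes and 1 value per clone could not change the value. The setting of 2 or more probes left such members out. They were 1 of 5 higher and 10 of 15 lower members at 6 h, and 2 of 7 and 9 of 20 at 12 h. The higher members made up 5 of 20 past 2-fold at 6 h and 7 of 27 at 12 h. Without centring their share was 12.0% and 9.38%. Over the whole array the split past 2-fold was 641 higher to 1950 lower at 6 h and 1558 to 2202 at 12 h. Without centring that split was 246 to 2900 and 742 to 3761. With centring, the members' split was near that of the array at 6 h. At 12 h it lay more to the lower side, a gap that was not tested. The number of arrays limits the precision, and signal over background is unknown.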
